A study of Mus musculus with 9 samples.

Results

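The 37 genes of the mouse mitochondrial genome are described here, chosen as every gene of the deposited table whose symbol starts with mt-, out of 54325 gene symbols (140658 transcripts). They were 13 mRNAs, 22 tRNAs and 2 rRNAs, each with 1 transcript on chromosome M of GRCm38. The mRNAs were 204 to 1824 nt long, the tRNAs 59 to 75 nt and the rRNAs 955 and 1582 nt. Of these genes, 12 mRNAs, 14 tRNAs and both rRNAs lay on the plus strand, and mt-Nd6 and 8 tRNAs on the minus strand. All libraries came from N2A cells, a mouse neuroblastoma line, kept for 2 h in 200 nM okadaic acid, which blocks phosphatases and so preserves phosphorylated UPF1, and no group lacked the drug. UPF1 is an RNA helicase of nonsense-mediated mRNA decay (NMD), and the comparisons ask which RNAs its phosphorylated form (p-UPF1) was bound to. The groups were RNA recovered with antibody to p-UPF1 (p-UPF1 IP), RNA recovered with control rabbit IgG (rIgG IP), and RNA without IP (Input), with 3 libraries each. Input and IP RNA alike was digested by RNase I to short pieces that were selected by size, and the study dropped reads under 35 nt. The labels and methods do not say of these libraries whether the 3 of a group came from separate cultures, so p-values measure the spread between these libraries, which may be technical.

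Total estimated counts per library were 25184464 to 29857955 in Input, 79010 to 474491 in the rIgG IP and 5312526 to 6246110 in the p-UPF1 IP. As CPM, the count relative to the library total, 3 counts of a gene stood for 0.100 to 0.119 CPM in Input, 6.32 to 38.0 CPM in the rIgG IP and 0.480 to 0.565 CPM in the p-UPF1 IP, a floor that, like the intervals below, covers counting error only. The 10 most-counted genes, mt-Rnr1 among them, held 77.9% to 82.3% of the counts of each library. Of 15 markers of N2A cells, 11 were above 1 CPM in Input, with Nefl at 0 and Dbh, Th and Nefm under 1 CPM. Of 14 markers of other cell types, Pdgfra, Pecam1 and Mbp were above 1 CPM, Aqp4 and Col1a2 were at 0, and their summed level was 4.09 to 4.80 CPM beside 271 to 303 CPM for the N2A markers.

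Mitochondrial DNA is transcribed on both strands into long RNAs that carry several genes, and the tRNAs between the other genes are cut out by RNase P at their 5′ ends and RNase Z at their 3′ ends. The mRNAs encode core subunits of respiratory complexes I, III and IV and of ATP synthase, and are translated inside the organelle on ribosomes built around mt-Rnr1, the rRNA of the small subunit, and mt-Rnr2, the rRNA of the large subunit. NMD, in contrast, acts on mRNAs that cytoplasmic ribosomes translate.

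The tRNA sequences below are those of the 3 tRNAs with the largest fitted decrease in the p-UPF1 IP relative to Input, of mt-Th, the tRNA next to mt-Ts2 in Input level, and of the 3 tRNAs with the smallest decrease. All are written 5′ to 3′ as DNA letters from GENCODE M21 transcripts (GRCm38, plus strand), with the anticodon in capitals, which a script located as the anticodon of the encoded amino acid in a loop closed by a stem. The first 3 are mt-Tl2, the tRNA for leucine at CUN codons, chrM:11671-11741, mt-Tk, the tRNA for lysine, chrM:7700-7764, and mt-Ts2, the tRNA for serine at AGY codons, chrM:11613-11671. mt-Th, the tRNA for histidine, chrM:11546-11612, follows. The last 3 are mt-Tv, the tRNA for valine, chrM:1025-1093, mt-Tf, the tRNA for phenylalanine, chrM:1-68, and mt-Tw, the tRNA for tryptophan, chrM:4950-5016. mt-Ts2 lacks the D arm that the other tRNAs of the genome have, and was the shortest at 59 nt. mt-Tf and mt-Tv lie on either side of mt-Rnr1 (chrM:70-1024), and mt-Tv ends next to the start of mt-Rnr2 (chrM:1094-2675).
mt-Tl2: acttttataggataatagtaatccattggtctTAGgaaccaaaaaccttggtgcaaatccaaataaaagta
mt-Tk: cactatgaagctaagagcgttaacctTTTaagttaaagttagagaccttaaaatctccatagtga
mt-Ts2: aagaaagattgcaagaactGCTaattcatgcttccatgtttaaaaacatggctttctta
mt-Th: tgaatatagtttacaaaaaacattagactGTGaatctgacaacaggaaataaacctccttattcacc
mt-Tv: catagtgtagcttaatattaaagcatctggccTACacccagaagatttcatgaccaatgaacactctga
mt-Tf: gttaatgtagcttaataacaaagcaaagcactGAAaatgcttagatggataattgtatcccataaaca
mt-Tw: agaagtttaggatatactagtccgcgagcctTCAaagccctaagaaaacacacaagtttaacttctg

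In the p-UPF1 IP, mitochondrial tRNAs and mRNAs were depleted, and the mitochondrial reads that remained were almost all rRNA. Relative to Input, all 22 tRNAs and all 13 mRNAs fell, mt-Rnr2 fell and mt-Rnr1 rose (edgeR quasi-likelihood test, adjusted p under 0.05 over all 16919 genes tested). Of all genes tested, 35.7% passed as lower and 26.3% as higher. All 36 members that fell also fell by more than 1 on the log2 scale, which 26.5% of all genes tested did, and mt-Rnr1 was the 1 member that rose by more than 1, which 17.3% of all genes tested did. For members near that limit this depended on the setting. Under the alternatives run, mt-Rnr1 ranged from 0.78 to 1.48, mt-Rnr2 from -1.33 to -0.63 and mt-Tw from -1.52 to -0.79. The median log2 fold change was -5.99 for the tRNAs (range -8.35 to -1.22) and -4.71 for the mRNAs (range -6.68 to -2.74), beside -0.42 for all genes tested. With the counts of the near-identical nuclear copies described below added, the mRNA median was -4.16 (range -5.23 to -2.74). With library totals alone in place of TMM factors (edgeR's trimmed-mean scaling of libraries), the all-gene median moved up by 0.41 and the share of passing genes that were lower from 57.6% to 43.3%, and the counts of members passing were the same. Levels here are relative to the rest of a library, so less of one RNA and more of the others cannot be told apart.

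As a share of the mitochondrial counts, tRNAs made up 52.9%, 47.9% and 53.7% in the Input libraries, 37.7%, 38.6% and 34.9% in the rIgG IP, and 1.21%, 1.67% and 1.85% in the p-UPF1 IP. The mRNAs made up 16.5%, 16.2% and 16.8% in Input, between 16.4% and 18.1% in the rIgG IP, and 2.16%, 2.93% and 2.46% in the p-UPF1 IP. The rRNAs took 30.6%, 35.9% and 29.5% in Input, 45.4%, 44.9% and 47.0% in the rIgG IP, and 96.6%, 95.4% and 95.7% in the p-UPF1 IP. The p-UPF1 IP libraries thus stood apart from the 6 others in the make-up of all 3 classes, while the share of mRNAs in Input and the rIgG IP overlapped. All mitochondrial genes together held 4.73% to 5.16% of the counts in Input, 3.85% to 4.83% in the rIgG IP and 2.26% to 2.95% in the p-UPF1 IP.

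Per kilobase of annotated length, the summed level of the tRNAs was 20511, 19459 and 21060 TMM-scaled CPM per kb in Input against 224, 259 and 263 in the p-UPF1 IP. The summed mRNA level was 841, 865 and 867 TMM-scaled CPM per kb in Input against 52.8, 59.8 and 46.0 in the p-UPF1 IP. The summed rRNA level was 7033, 8640 and 6830 TMM-scaled CPM per kb in Input against 10621, 8741 and 8045 in the p-UPF1 IP, and these ranges overlapped. In the rIgG IP, the third library was the lowest in all 3 classes, with 440 TMM-scaled CPM per kb for mRNAs beside 683 and 675 in the other libraries. It was also the shallowest library and had the largest TMM factor, 1.58 beside 0.839 and 1.03, and the part of these in its levels was not tested. The tRNA share of its mitochondrial counts, which no scaling factor touches, was 34.9% beside 37.7% and 38.6%.

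**Figure D1:**
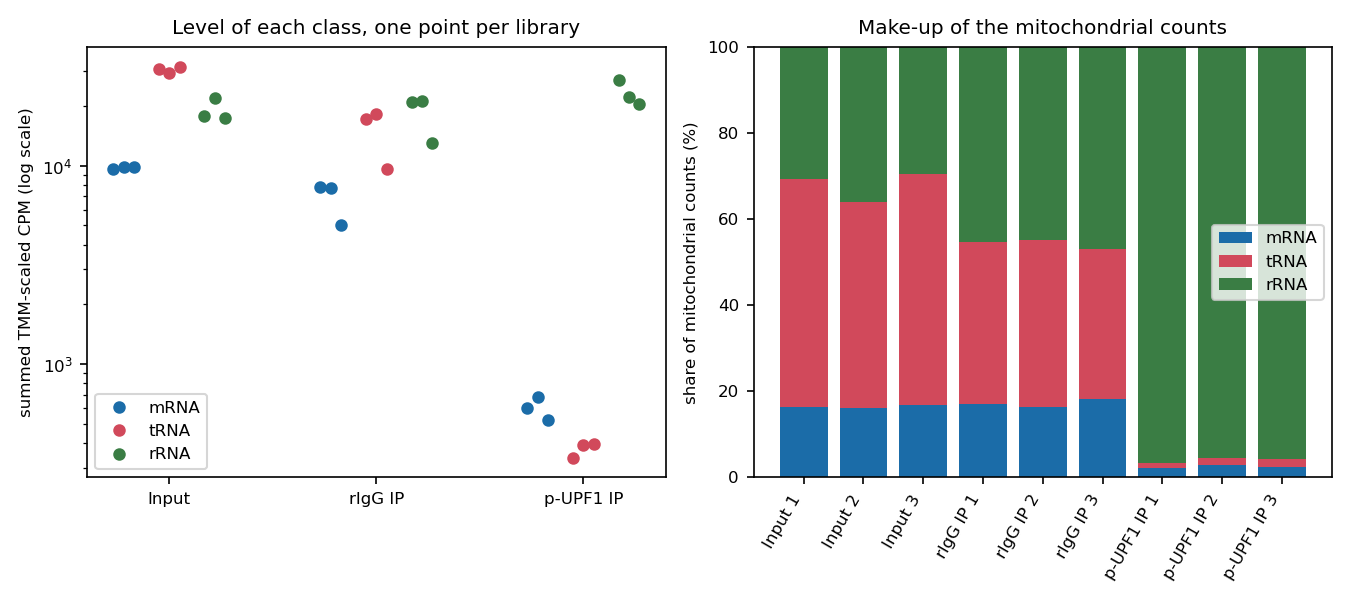
Summed TMM-scaled CPM of each class in each library on a log axis (left, one point per library) and the make-up of the mitochondrial counts of each library in percent (right). The tRNAs fall from 47.9% to 53.7% of mitochondrial counts in Input to 1.21% to 1.85% in the p-UPF1 IP, where rRNA takes over 95%.

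The rRNAs moved apart. The level of mt-Rnr1, the small-subunit rRNA, was 7932, 9300 and 7710 TMM-scaled CPM in Input, 12510, 11915 and 6550 in the rIgG IP, and 20919, 16891 and 15676 in the p-UPF1 IP. All 3 p-UPF1 IP libraries lay above all 6 others, while Input and the rIgG IP overlapped. The log2 fold change of mt-Rnr1 in the p-UPF1 IP over Input was 1.08 ± 0.13 (SE, n = 3 per group, edgeR, adjusted p = 3.79e-05), higher than for 81.8% of all genes tested. The level of mt-Rnr2, the large-subunit rRNA, was 9910, 12619 and 9618 TMM-scaled CPM in Input, 8318, 9167 and 6470 in the rIgG IP, and 6027, 5284 and 4734 in the p-UPF1 IP. Here the p-UPF1 IP libraries lay below all others, with a log2 fold change over Input of -1.03 ± 0.13 (SE, edgeR, adjusted p = 5.64e-05). Since both rRNAs are counted in the same libraries, their ratio needs no scaling factor. It was 0.800, 0.737 and 0.802 counts of mt-Rnr1 per count of mt-Rnr2 in Input, 1.50, 1.30 and 1.01 in the rIgG IP, and 3.47, 3.20 and 3.31 in the p-UPF1 IP, with no overlap between the 3 groups.

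Relative to the rIgG IP, mt-Rnr1 was higher in the p-UPF1 IP, by a log2 fold change of 1.02 ± 0.29 (SE, edgeR, adjusted p = 0.0114). The median of all 12033 genes tested in that comparison was 0.89, and 52.9% of them had a lower value than mt-Rnr1. The call was lost with RLE factors, the median-ratio scaling that DESeq2 uses (log2 fold change 0.73, adjusted p = 0.0711), with edgeR's filterByExpr (0.68, adjusted p = 0.166), with the p-UPF1 IP libraries thinned to 205177 counts (0.36, edgeR adjusted p = 0.431), without rIgG IP replicate 2 (1.04, edgeR adjusted p = 0.0674) and without p-UPF1 IP replicate 1 (0.86, edgeR adjusted p = 0.0733). The rIgG IP libraries were not thinned and still differed in depth. For mt-Rnr2 the log2 fold change over the rIgG IP was -0.35 ± 0.25 (SE, edgeR, adjusted p = 0.330) and did not pass, although the TMM-scaled levels of the groups did not overlap. It passed as lower with library totals (-0.62, edgeR adjusted p = 0.0268), with DESeq2 (-0.65, adjusted p = 0.00152) and with thinned libraries (-1.05, edgeR adjusted p = 0.00724), and turned to 0.11 on transcripts (edgeR adjusted p = 0.672). In the rIgG IP over Input neither rRNA passed, with log2 fold changes of 0.32 for mt-Rnr1 (edgeR, adjusted p = 0.705) and -0.42 for mt-Rnr2 (edgeR, adjusted p = 0.538).

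**Figure D2:**
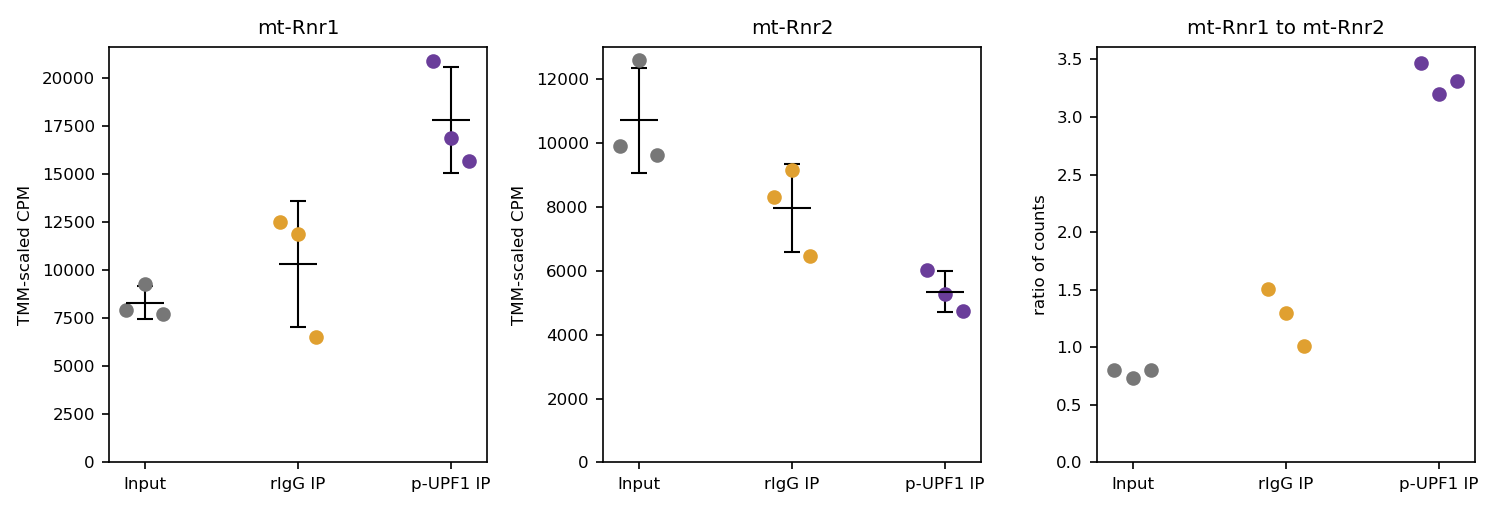
Level of mt-Rnr1 and of mt-Rnr2 (TMM-scaled CPM) and the ratio of their counts, one point per library, with mean and SD over 3 libraries for the levels. The ratio separates the groups, at 0.737 to 0.802 in Input, 1.01 to 1.50 in the rIgG IP and 3.20 to 3.47 in the p-UPF1 IP.

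All 13 mRNAs fell in the p-UPF1 IP relative to both other groups. Over the rIgG IP the median log2 fold change was -3.79 (range -6.30 to -2.35), beside 0.89 for all genes tested, of which 5.59% passed as lower and 17.9% as higher. With the counts of the nuclear copies added, the mRNA median over the rIgG IP was again -3.79 (range -4.75 to -2.36). Lower genes were 23.8% of all passing genes there, 35.9% with RLE factors (all-gene median moved by -0.27) and 43.9% with DESeq2, and the 13 mRNAs passed as lower under both. In every mRNA the 3 p-UPF1 IP levels lay below the 3 Input levels, as in 41.6% of all genes tested. Below the rIgG IP without overlap were 12 mRNAs, as 6.57% of all genes tested were. The exception was mt-Nd3, a complex I subunit, with 1 rIgG IP library at 0. By complex, the median log2 fold change over Input was -3.53 for the 7 complex I mRNAs, -5.23 for mt-Cytb, the subunit of complex III, -4.73 for the 3 complex IV mRNAs and -5.69 for the 2 ATP synthase mRNAs. With the counts of the nuclear copies described below added, the median of the ATP synthase mRNAs was -4.76, above mt-Cytb, and those of complexes I and IV were -3.51 and -4.73.

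The mRNAs with the smallest decrease were mt-Nd6, mt-Nd2 and mt-Co2. mt-Nd6, a complex I subunit and the only mRNA of the minus strand, was at 151, 163 and 148 TMM-scaled CPM in Input, 174, 303 and 209 in the rIgG IP, and 23.9, 21.1 and 25.4 in the p-UPF1 IP, a log2 fold change over Input of -2.74 ± 0.09 (SE, edgeR, adjusted p = 2.82e-09). The levels of mt-Nd2, another complex I subunit, were 245, 278 and 257 in Input, 272, 365 and 257 in the rIgG IP and 32.9, 36.6 and 29.8 in the p-UPF1 IP, a log2 fold change over Input of -3.00 ± 0.09 (SE, edgeR, adjusted p = 2.65e-09). mt-Co2, a core subunit of cytochrome c oxidase, was at 1886, 1875 and 2024 TMM-scaled CPM in Input, 1617, 1459 and 811 in the rIgG IP, and 217, 255 and 189 in the p-UPF1 IP, with a log2 fold change of -3.16 ± 0.11 (SE, edgeR, adjusted p = 6.64e-09) over Input and -2.35 over the rIgG IP. All 3 were thus lower in each p-UPF1 IP library than in any other library, and their Input levels spread little. The same 14 nt on opposite strands belong to mt-Nd5 and mt-Nd6, and the sources used here do not say whether counting used strand, so that reads of mt-Nd6, or of the 8 minus-strand tRNAs, and reads from the RNA opposite to them cannot be told apart. mt-Nd5, mt-Nd4 and mt-Nd1, also of complex I, came next in size, with log2 fold changes over Input of -3.20, -3.53 and -3.69.

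On the mitochondrial gene alone, the mRNAs with the largest fitted decrease were mt-Atp6, mt-Co3 and mt-Nd3, all 3 with near-identical nuclear copies that had counts. With those counts added the order changed, and mt-Cytb, which has no such copy, came first, before mt-Nd3, mt-Co3 and mt-Atp6. mt-Cytb was at 987, 1038 and 1030 TMM-scaled CPM in Input, 719, 687 and 450 in the rIgG IP, and 30.8, 24.6 and 27.5 in the p-UPF1 IP, a log2 fold change over Input of -5.23 ± 0.10 (SE, edgeR, adjusted p = 2.59e-10), and the 3 groups did not overlap. mt-Atp6, a subunit of the proton channel of ATP synthase, was at 504, 533 and 521 TMM-scaled CPM in Input, 503, 531 and 369 in the rIgG IP, and 0, 14.7 and 0 in the p-UPF1 IP, a fitted log2 fold change over Input of -6.68 ± 0.67 (SE, edgeR, adjusted p = 1.07e-05). mt-Co3, a core subunit of cytochrome c oxidase, was at 1496, 1515 and 1507 in Input, 440, 422 and 538 in the rIgG IP, and 19.0, 49.3 and 9.37 in the p-UPF1 IP, a log2 fold change of -5.87 ± 0.43 (SE, edgeR, adjusted p = 1.04e-06). Both were far lower in all p-UPF1 IP libraries, but those libraries differed among themselves by more than for the mRNAs above, as did those of mt-Nd4l, a complex I subunit with 0, 0 and 42 counts in the p-UPF1 IP. mt-Nd3 was at 61.0, 76.6 and 66.1 TMM-scaled CPM in Input, 45.3, 28.4 and 0 in the rIgG IP, and 1.60, 1.61 and 1.36 in the p-UPF1 IP, a log2 fold change of -5.50 ± 0.15 (SE, edgeR, adjusted p = 1.56e-09). Without p-UPF1 IP replicate 2, mt-Atp6 was at 0 in the p-UPF1 IP and mt-Co3 had a log2 fold change of -6.74. Over the rIgG IP, mt-Nd3 had a log2 fold change of -4.10, and of -3.27 without rIgG IP replicate 1. Without p-UPF1 IP replicate 3, mt-Nd4l was at 0 there. These zeros set no bound on the decrease, since the copies had counts in the same libraries.

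A stretch of 4663 nt of the minus strand of chromosome 1 (chr1:24611535-24616197) holds 7 unprocessed pseudogenes that are near-identical to 7 of the mRNAs, in which at least 90% of all 35-nt windows also occur in the mitochondrial gene. They are Gm28439 (copy of mt-Nd4), Gm10222 (mt-Nd4l), Gm28438 (mt-Nd3), Gm28437 (mt-Co3), Gm10925 (mt-Atp6), Gm28661 (mt-Co2) and Gm29216 (mt-Co1). No base separates the aligned parts of the first 2 and of Gm28437, Gm10925 and Gm28661 from the mitochondrial genes, so a read from there fits both. Gm28438 differs from mt-Nd3 by 1 base over its length, T3C, with the mitochondrial base first and counted from the first base of mt-Nd3. The first 30 bases of both, 5′ to 3′ with position 3 in capitals, come from chrM:9459-9488 (plus strand) and chr1:24613090-24613119 (minus strand) of GRCm38.
mt-Nd3: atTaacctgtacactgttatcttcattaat
Gm28438: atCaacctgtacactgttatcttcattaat

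In the p-UPF1 IP the counts of mt-Atp6, mt-Co3 and mt-Nd4l and of their copies traded places between libraries while the sums varied little. This was not so for the other pairs, since the copies of mt-Nd4, mt-Co2 and mt-Co1 were at 0 in all 3 libraries and Gm28438 held 82.0% to 84.5% of the sum with mt-Nd3. mt-Atp6 had 0, 100 and 0 counts and Gm10925 had 124, 0 and 132, which sum to 124, 100 and 132. For mt-Co3 and Gm28437 the sums were 307, 336 and 310, and for mt-Nd4l and Gm10222 they were 46, 47 and 42. With the copy's counts added, the log2 fold change over Input was -4.82 ± 0.13 (SE) for mt-Atp6, -4.93 ± 0.09 for mt-Co3 and -3.51 ± 0.12 for mt-Nd4l, each a smaller decrease than on the gene alone. Most of the shared counts of mt-Nd3 lay on its copy, with 72.7% to 80.1% of the sum on Gm28438 in Input, and its log2 fold change with the copy was -5.11 ± 0.10 (SE). mt-Nd4 went the other way, with 33.5% to 36.4% of the sum on Gm28439 in Input and 0 counts there in the p-UPF1 IP, and its log2 fold change moved from -3.53 to -4.16 with the copy. All 13 mRNAs passed as lower in both p-UPF1 IP comparisons with the copies added. No 35-nt window of a tRNA or of mt-Rnr1 occurred in a nuclear transcript, and 2.20% of those of mt-Rnr2 did.

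**Figure D3:**
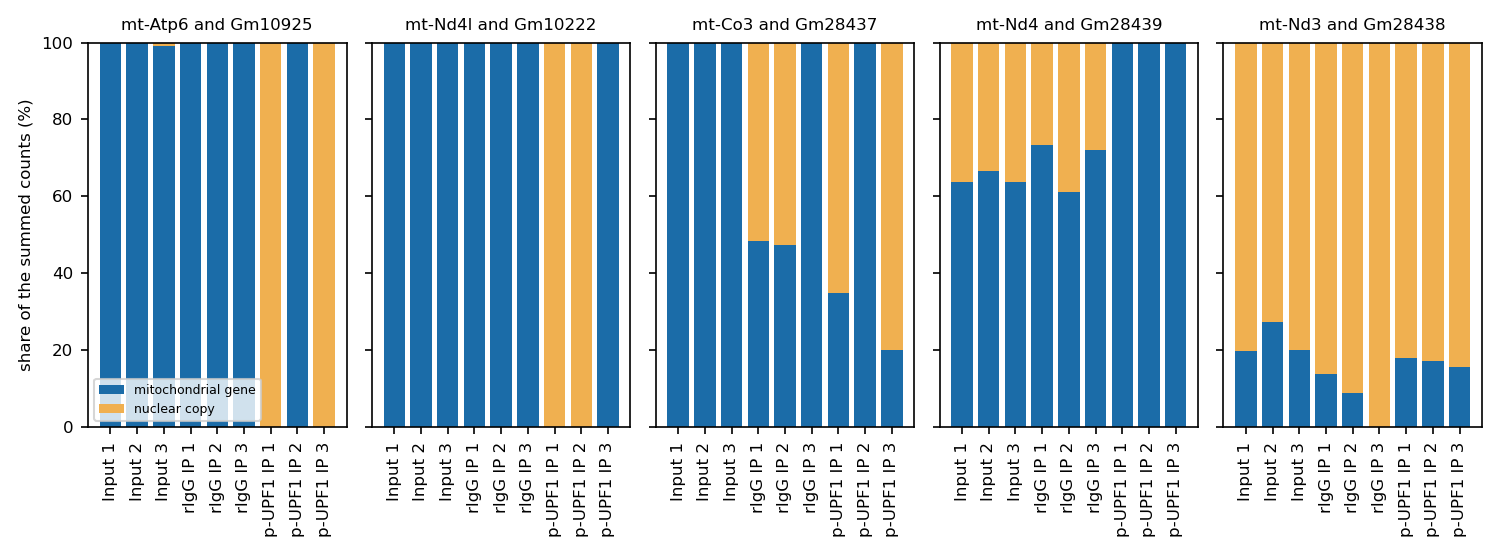
Share of the summed counts that lay on the mitochondrial gene (blue) and on its near-identical nuclear copy (orange) in each of the 9 libraries, in percent. In the p-UPF1 IP, mt-Atp6 takes 0%, 100% and 0% of its sum, while mt-Nd3 takes a minority of its sum in every library.

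Of the 3 classes, the tRNAs had the lowest median. Over Input, 20 of the 22 had a log2 fold change below -2.3 and 6 were below -7.5, as was no mRNA, although the ranges of both classes overlapped. Over the rIgG IP, 20 tRNAs reached the summed count of 10 needed for the test and 19 of them passed as lower, as 5.59% of all genes tested did. Their median log2 fold change was -4.28 (range -7.26 to -1.28) over the 20 tested. mt-Tk and mt-Tf were too low for that test, and mt-Tw did not pass. Levels of the p-UPF1 IP lay below those of Input without overlap in all 22 tRNAs, as in 41.6% of all genes tested. They lay below those of the rIgG IP without overlap in 20, as in 6.57% of all genes tested.

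mt-Tl2, the tRNA for leucine at CUN codons, was at 161, 151 and 198 TMM-scaled CPM in Input, 148, 80.5 and 16.1 in the rIgG IP, and 0.178, 0.440 and 0.906 in the p-UPF1 IP, where it had 1, 3 and 6 counts. Its log2 fold change over Input, -8.35 ± 0.24 (SE, edgeR, adjusted p = 1.82e-09), was the lowest fitted value of the 37 genes. With each library left out in turn it ranged from -9.00, without p-UPF1 IP replicate 3, to -7.97. That range overlapped those of mt-Tk (-9.01 to -7.40) and mt-Tn (-8.00 to -7.73), so the order of the lowest tRNAs is not set. Over the rIgG IP the log2 fold change of mt-Tl2 was -7.26, and -6.38 without rIgG IP replicate 1. mt-Tk, the tRNA for lysine, had Input counts of 951, 854 and 1055, rIgG IP counts of 4, 1 and 0, and p-UPF1 IP counts of 2, 1 and 0, which by the ratio of summed counts was 207-fold lower than Input (95% exact interval 70.7 to 1004, counting error only). The rIgG IP was thus low for mt-Tk as well. mt-Ts2, the tRNA for serine at AGY codons and the most counted tRNA in Input, was at 11632, 11126 and 11814 TMM-scaled CPM in Input, 3500, 2871 and 971 in the rIgG IP, and 42.0, 51.3 and 52.9 in the p-UPF1 IP, a log2 fold change over Input of -7.91 ± 0.13 (SE, edgeR, adjusted p = 8.62e-11). The 3 groups of mt-Ts2 did not overlap, and the rIgG IP lay between the others. mt-Tn, for asparagine, and mt-Td, for aspartate, were close to these, with log2 fold changes over Input of -7.89 and -7.58, the latter from 1, 3 and 2 counts in the p-UPF1 IP (149-fold lower by summed counts, 95% exact interval 68.6 to 407).

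mt-Th, the tRNA for histidine, was high in both Input and the rIgG IP. Its levels were 7825, 8095 and 7080 TMM-scaled CPM in Input, 7227, 10977 and 6181 in the rIgG IP, and 100, 96.9 and 92.8 in the p-UPF1 IP. The log2 fold change was -6.34 over Input and -6.16 over the rIgG IP, and 0.09 in the rIgG IP over Input (edgeR, adjusted p = 0.846). For this tRNA the rIgG IP and Input overlapped and the p-UPF1 IP was below both by a similar factor.

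The tRNAs with the smallest decrease were mt-Tw, mt-Tf and mt-Tv. mt-Tw, for tryptophan, had 242, 209 and 289 counts in Input, 5, 3 and 2 in the rIgG IP, and 28, 38 and 25 in the p-UPF1 IP, which were mean levels of 10.9, 14.3 and 4.78 TMM-scaled CPM. Its log2 fold change was -1.22 ± 0.16 over Input (SE, edgeR, adjusted p = 6.60e-05) and -1.28 ± 0.53 over the rIgG IP (SE, edgeR, adjusted p = 0.0828), and the latter passed with RLE factors (-1.56, edgeR adjusted p = 0.0442), with filterByExpr (-1.63, edgeR adjusted p = 0.0303) and with DESeq2 (-1.57, adjusted p = 0.0188). mt-Tv, for valine, was at 43.3, 38.7 and 42.0 TMM-scaled CPM in Input, 42.7, 28.4 and 48.2 in the rIgG IP, and 5.52, 8.06 and 11.2 in the p-UPF1 IP, a log2 fold change over Input of -2.33 ± 0.16 (SE, edgeR, adjusted p = 7.37e-07) and over the rIgG IP of -2.01. mt-Tf, for phenylalanine, was the lowest gene in Input, with 41, 36 and 39 counts there, then 1, 0 and 0 in the rIgG IP and 3, 1 and 3 in the p-UPF1 IP, and was 3.60-fold lower than Input by summed counts (95% exact interval 1.69 to 9.14). The p-UPF1 IP lay below Input in all 3, and for mt-Tf the rIgG IP counts were too low to place it. mt-Tf and mt-Tv are the tRNAs that flank mt-Rnr1, the member that rose. mt-Tl1 (chrM:2676-2750), which starts next to the end of mt-Rnr2, had a log2 fold change over Input of -6.17. A link between place on the genome and fold change was not tested. For mt-Tw, 2 of its bases lie within mt-Nd2, and the call over Input was lost when the Input and p-UPF1 IP libraries were thinned to 205177 counts (log2 fold change -0.79, edgeR, adjusted p = 0.521).

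**Figure D4:**
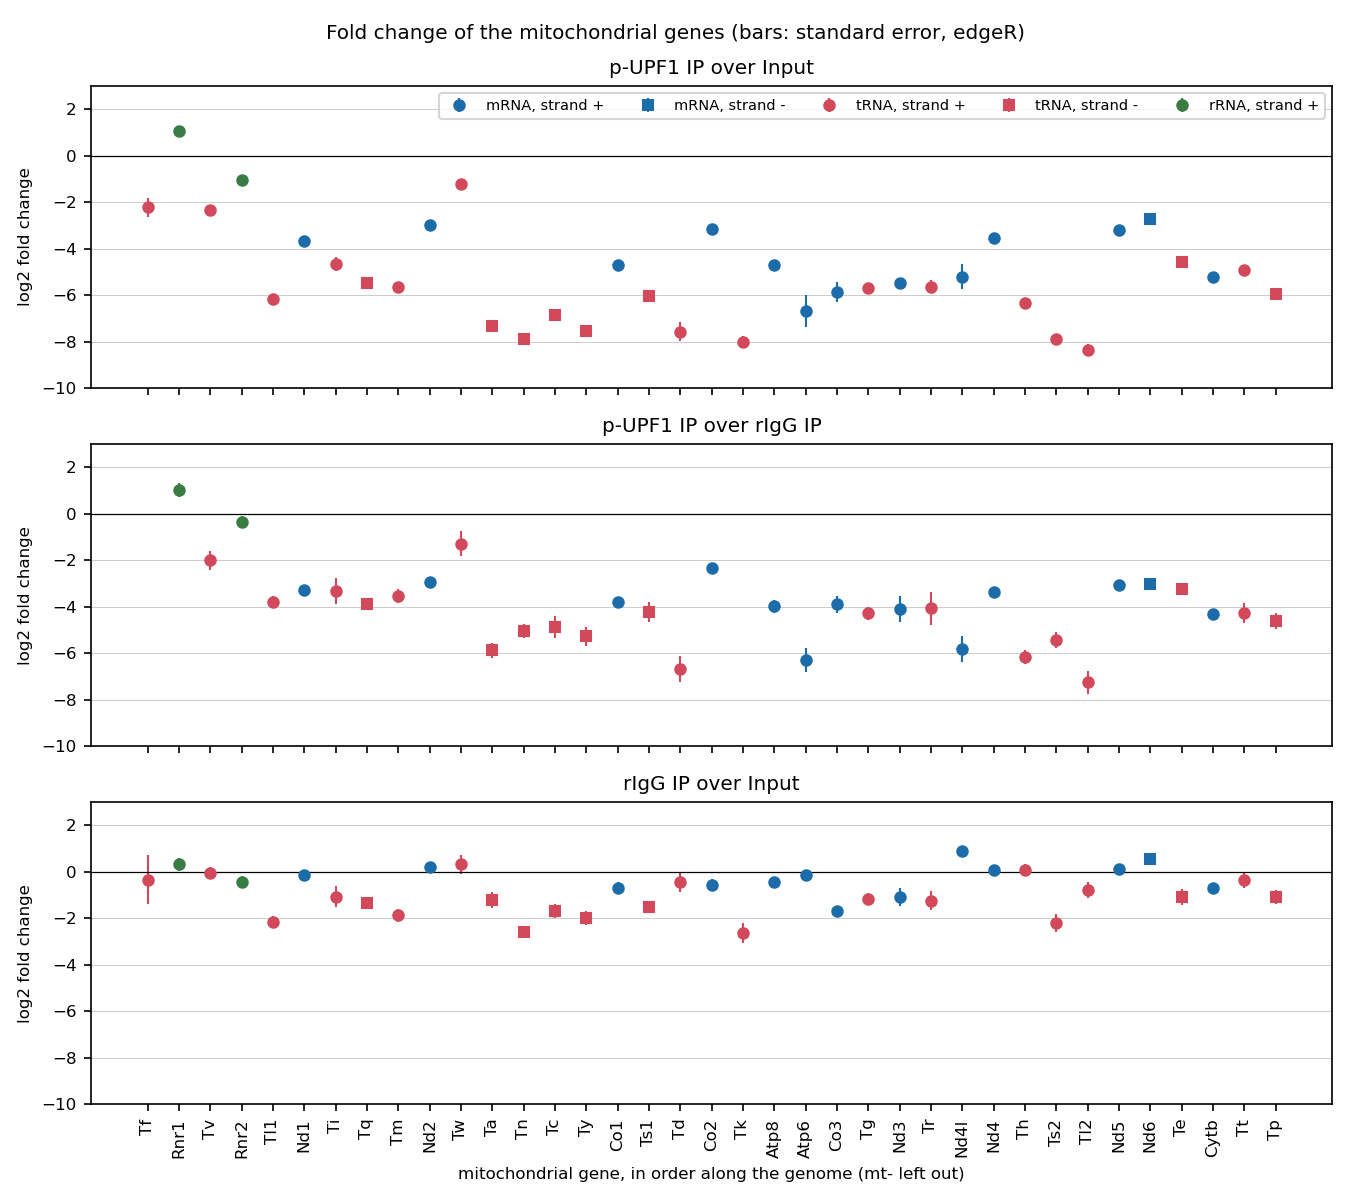
Log2 fold change of each gene in order along the mitochondrial genome, for p-UPF1 IP over Input, p-UPF1 IP over rIgG IP and rIgG IP over Input, by class (colour) and strand (circle, plus; square, minus), with bars of 1 SE. mt-Rnr1 is the only gene above 0 in both upper panels, and its neighbours mt-Tf and mt-Tv are, with mt-Tw, the tRNAs with the smallest decrease over Input. A link to place was not tested.

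Other tRNAs of high Input level were mt-Ta, for alanine, mt-Te, for glutamate, and mt-Tg, for glycine. Their mean levels in Input were 44941, 35302 and 32231 TMM-scaled CPM per kb, below mt-Ts2 at 195320 and mt-Th at 114431. The spread over the Input libraries put mt-Te (SD 688 TMM-scaled CPM on a mean of 2436) within reach of both mt-Ta (3101 ± 170) and mt-Tg (2192 ± 20.9), so the order of these neighbours is not set by the data. In the p-UPF1 IP the highest tRNAs per kb were mt-Te at 1500 and mt-Th at 1441. Their log2 fold changes over Input were -7.34 for mt-Ta, -4.58 for mt-Te and -5.69 for mt-Tg. Per kb, the mRNAs ranged from 2819 for mt-Co2 to 195 for mt-Nd3 in Input and from 322 for mt-Co2 to 4.38 for mt-Nd3 in the p-UPF1 IP, so that mt-Co2 was the highest mRNA in both. The place of mt-Nd3 rests on its split with Gm28438, since with the copy's counts it was at 877 TMM-scaled CPM per kb in Input and 25.9 in the p-UPF1 IP, and the lowest mRNAs were then mt-Nd2 at 250.5 and mt-Atp8 at 23.0. The annotated length overstates the positions at which a 35-nt read can start in a tRNA, and with length minus 34 the summed tRNA level was 40551 TMM-scaled CPM per kb in Input and 496 in the p-UPF1 IP.

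**Figure D5:**
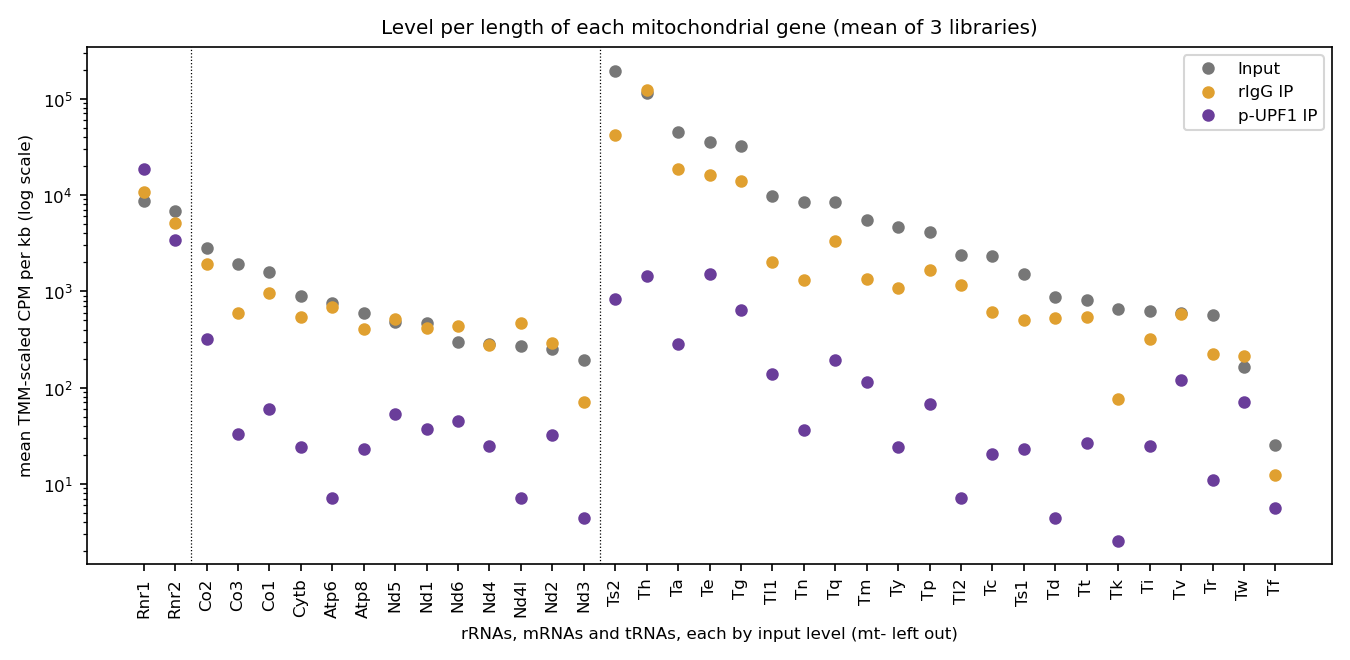
Mean level of each gene per kilobase of annotated length (TMM-scaled CPM per kb, log axis, mean of 3 libraries) in Input, the rIgG IP and the p-UPF1 IP, with rRNAs, mRNAs and tRNAs each ordered by Input level. The p-UPF1 IP point is the lowest of the 3 for every gene except mt-Rnr1.

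Strand and gene properties were compared across the members. The median log2 fold change over Input was -5.67 for the 14 plus-strand tRNAs and -6.45 for the 8 minus-strand tRNAs, with ranges that overlapped (-8.35 to -1.22 and -7.89 to -4.58). Across the 22 tRNAs, which share libraries and depth, the log2 fold change over Input had a Spearman rho of -0.44 (Pearson r = -0.53) with the Input level per kb, 0.03 with length and 0.23 with GC content. Across the 13 mRNAs the Spearman rho values were -0.21, 0.21 and -0.27. These describe the members, which are not replicates, and the Input level enters both measures of the first.

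Fewer members differed between the rIgG IP and Input, and most that did were tRNAs. Of 22 tRNAs, 9 fell in the rIgG IP over Input (mt-Tl1, mt-Tq, mt-Tm, mt-Tn, mt-Tc, mt-Ty, mt-Ts1, mt-Tk and mt-Ts2), and of the mRNAs mt-Co3 did, where 0.313% of the 16280 genes tested passed as lower. No member rose in the edgeR test as specified, while 0.584% of all genes tested did, and 2 members were higher at an unadjusted p under 0.05. Under other settings up to 3 mRNAs passed as higher (3 with DESeq2), and mt-Rnr1 did with library totals (0.67, edgeR adjusted p = 0.0335). The median log2 fold change was -1.19 for tRNAs and -0.15 for mRNAs, beside -0.84 for all genes tested. Among all genes the share of passing genes that were lower was 34.9%, 18.4% with RLE factors (all-gene median moved by 0.28), 24.2% with library totals, 51.9% in 1 fit of 9 libraries, 52.6% with no filter on low counts and 58.1% with filterByExpr. The largest called decreases were -2.64 ± 0.45 for mt-Tk (SE, edgeR, adjusted p = 0.0142), -2.58 ± 0.26 for mt-Tn (SE, edgeR, adjusted p = 0.000257) and -2.22 ± 0.38 for mt-Ts2 (SE, edgeR, adjusted p = 0.0146). The call for mt-Co3, -1.70 ± 0.20 (SE, edgeR, adjusted p = 0.000837), was lost with the counts of Gm28437 added (-0.92, edgeR, adjusted p = 0.0950). Without rIgG IP replicate 2 the number of tRNAs that fell was 4, with mt-Tk at -2.47 (edgeR adjusted p = 0.0810) and mt-Ts2 at -2.33 (edgeR adjusted p = 0.0919), about as large as with it, and without rIgG IP replicate 1 mt-Tk had a log2 fold change of -3.82. Both p-UPF1 IP comparisons share the p-UPF1 IP libraries and this one shares libraries with each, so the 3 are not independent.

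Nuclear genes whose products act on or with these RNAs were read beside them. Of 52 genes for mitochondrial RNA synthesis, processing, modification and decay, 51 had enough counts to compare p-UPF1 IP and Input. Of these 18 were higher and 24 lower, beside 26.3% and 35.7% of all genes tested, with a median log2 fold change of -0.40 beside -0.42. The highest were Mrm1, an rRNA methyltransferase, with Input counts of 62, 59 and 85 and p-UPF1 IP counts of 136, 117 and 122 (log2 fold change 2.67 ± 0.16, SE), and Mettl17, a factor of the small mitochondrial ribosomal subunit (2.63 ± 0.23, SE). Trub2 was level with Mettl17 over Input (2.63 ± 0.10, SE). The lowest fitted values were those of Mterf1a, a transcription terminator, with Input counts of 11, 10 and 13 and none in the 3 p-UPF1 IP libraries, which bounds it only as at least 2.46-fold lower against 3 counts over the group and so gives it no place in the order, and of Slirp, which binds mitochondrial mRNAs, with Input counts of 159, 119 and 222 and p-UPF1 IP counts of 3, 2 and 3 (log2 fold change -4.13 ± 0.36, SE). Over the rIgG IP, 9 of 45 tested were higher and 1 lower, beside 17.9% and 5.59% of all genes tested, with a median of 1.11 beside 0.89. Mrm1 and Trub2 passed as higher there, each with 0 counts in all 3 rIgG IP libraries (edgeR, adjusted p = 0.000518 and 0.000136). Mettl17 did not pass (0.82 ± 0.77, SE, edgeR, adjusted p = 0.460), nor did Slirp (-2.36 ± 1.33, SE, edgeR, adjusted p = 0.211). In the rIgG IP over Input 0 of 51 passed with edgeR or DESeq2, with 2 higher and 6 lower at an unadjusted p under 0.05 (edgeR).

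The 85 nuclear genes for subunits of the respiratory complexes and ATP synthase, whose mRNAs are translated in the cytoplasm, were mostly lower in the p-UPF1 IP. Of 82 tested, 80 were lower than in Input, beside 35.7% of all genes tested, with a median log2 fold change of -2.81, beside -4.71 for the 13 mitochondrial mRNAs. With the counts of the nuclear copies added, the median of the mitochondrial mRNAs was -4.16. Over the rIgG IP, 32 of 71 were lower, beside 5.59% of all genes tested, with a median of -1.71 beside -3.79. In the rIgG IP over Input 0 of 82 passed with edgeR or DESeq2, and 14 were lower at an unadjusted p under 0.05 (edgeR), with a median of -0.57 beside -0.15. The difference between the nuclear and mitochondrial mRNAs was not tested.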

How the data were processed

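RNA of p-UPF1 IP, rIgG IP and Input from N2A cells was measured in 9 libraries, grouped by their labels. The deposited values are estimated counts per transcript, made by the authors with Salmon after read trimming and mapping. The submitters' processing notes name bcl2fastq 2.19.0, STAR 2.7.0f, Salmon 0.13.1 and GRCm38.p6. The values were already whole numbers, and the step that made them whole is not given in the sources used here, nor is whether counting used strand. Reads that fit several transcripts are shared by Salmon's model, which touches genes with near-identical copies.

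Here counts were summed per gene symbol, and genes with a summed count of at least 10 in the 6 libraries compared were tested with edgeR 4.0.16 (quasi-likelihood test, TMM factors, R 4.3.3), with Benjamini-Hochberg adjustment over all genes tested and a threshold of 0.05. Enriched and depleted genes also needed a log2 fold change above 1 or below -1. SE is the log2 fold change divided by the square root of F, and at few counts, as for mt-Tl2, it can be smaller than counting error. Levels are CPM scaled with TMM factors over 9 libraries. The total count per library, 79010 to 29857955, sets the precision, lowest in the rIgG IP. Alternatives were other scaling, DESeq2 1.42.0, other count filters, transcripts in place of genes, 1 fit of 9 libraries, a replicate block, and each library left out. Adding nuclear copies and thinning the Input and p-UPF1 IP libraries to 205177 counts were chosen after seeing the data. The rIgG IP libraries were not thinned.

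The labels and methods do not say whether same-numbered libraries belong together, and the fits did not pair them. Deviations of same-numbered libraries correlated at -0.027 to 0.057. For p-UPF1 IP over Input their mean was 0.031, beside -0.015 for other numbers. With 3 libraries per group, and few counts in the rIgG IP, this cannot exclude pairing, and a replicate block was run as an alternative. On simulated counts with changes of 1, 2 and 4 (log2), 62.7%, 73.1% and 92.4% of changed genes were recovered for p-UPF1 IP over Input (15947 genes, 5.59% of calls false), 38.8%, 85.1% and 93.9% over rIgG IP (11271 genes, 9.94% false) and 17.9%, 86.6% and 100% for rIgG IP over Input (14468 genes, 12.3% false). Changed genes were drawn only from those with an expected count of at least 1 in the smallest library compared. With an rIgG IP library of 79010 counts, that limit lies at a higher level in both rIgG IP comparisons. The rates therefore do not rank the comparisons, and genes of low level, such as mt-Tf, lie outside them there.

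Members, gene lists and markers were chosen with earlier results of these data known. Full values were given for both rRNAs, mt-Nd6, and the 3 mRNAs and 3 tRNAs with the largest and smallest change over Input. mt-Th, mt-Cytb, mt-Nd4l and the tRNAs of high Input level were added after their values were seen. Of the mitochondrial RNA factors, the 2 highest and 2 lowest passing genes were named, and Trub2 was added for its value next to that of Mettl17. Sequences and positions are from GENCODE M21 (GRCm38), in which all 37 members matched by identifier.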

Additional observations from a re-analysis of the deposited data

How the results depend on the processing

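Against Input, the counts of members higher and lower in the p-UPF1 IP were the same under all alternatives run except 2. With thinned libraries 20 tRNAs were lower (mt-Tf was not tested and mt-Tw did not pass), and on transcripts 12 mRNAs were (mt-Nd4l did not pass). Without the 10 most-counted genes, mt-Rnr1, which is one of them, had no value and the rRNAs were not counted as a class. mt-Rnr2 stayed in that fit, and it passed as lower than Input under all 17 alternatives. Over the rIgG IP, 10 mRNAs and 18 tRNAs were lower on transcripts, where mt-Atp6, mt-Nd3, mt-Nd4l, mt-Tv and mt-Tw did not pass, and 12 mRNAs with filterByExpr, where mt-Nd3 was not tested. There, 0 rRNAs were higher with RLE factors, filterByExpr or thinned libraries (0 to 1 with a library left out), 1 was lower with library totals, DESeq2 or thinned libraries, and mt-Rnr2 had a log2 fold change of 0.11 on transcripts. In the rIgG IP over Input, 1 mRNA was higher with RLE factors, library totals, no filter and filterByExpr, 2 with thinned libraries, 3 with DESeq2, and 0 to 1 with a library left out. There, 2 mRNAs were lower with DESeq2, 4 with no filter, and 0 on transcripts or with copies added. Lower tRNAs numbered 14 with no filter, 5 with thinned libraries, 0 on transcripts, and 4 to 12 with a library left out. On transcripts 0 of all 36312 tested passed in either direction, and their median log2 fold change was -4.58, beside -0.84 on genes. The fitted values of mt-Tk, -3.45, and mt-Ts2, -2.95 (edgeR adjusted p = 0.0558 for both), lay above that median. Those of mt-Rnr1, mt-Nd2 and mt-Nd6 moved down as well (given below), so the 2 fits differ in scale and these values cannot be read as larger decreases. With library totals 1 rRNA was higher. In that comparison 13 of 37 members turned in sign under at least 1 alternative, none of them past the threshold as reported. Of the genes named by rule, these were mt-Atp6 at 0.19 (RLE), 0.21 (library totals), 0.20 (DESeq2) and 0.27 (thinned), mt-Tv at 0.23, 0.17, 0.22 and 0.21 in the same order and -0.20 to 0.10 with a library left out, mt-Tf at 0.23 (DESeq2) and -7.55 to 0.15 with a library left out, mt-Rnr2 at 0.018 (thinned), and on transcripts mt-Rnr1 at -0.41, mt-Nd2 at -0.54, mt-Nd6 at -0.17 and mt-Tw at -0.37. The others were mt-Nd1, mt-Nd4, mt-Nd5, mt-Td and mt-Th. The cause was not tested. With the replicate block, the counts of members in both p-UPF1 IP comparisons did not change, 12 in place of 9 tRNAs were lower in the rIgG IP over Input, and over all genes 1368 were higher and 427 lower over the rIgG IP in place of 2158 and 673. With DESeq2 those were 1254 and 981, and in the rIgG IP over Input 305 higher and 68 lower in place of 95 and 51. Values of the rIgG IP are limited by its depth, at which 3 counts are 6.32 to 38.0 CPM.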
